A study of Mus musculus with 2 samples.

Results

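Transcripts of 6 genes of B cell activation and the germinal centre, Bcl6, Cd80, Cd83, Cd86, Fcer2a and Cr2, were followed in single leukocytes of pancreatic islets. They were the rows of the deposited gene list with exactly these symbols, 6 of 27998 genes, each found once. Single-cell libraries (10x Genomics Chromium, 3' chemistry) came from CD45.1+ cells sorted from islets of female NOD/ShiLtJ mice, an inbred strain that develops autoimmune diabetes spontaneously. There was 1 library from mice 12 weeks old and 1 from mice 7 weeks old, with no treatment or engineered allele named for either, and the size of the pool of mice behind each library is not stated. With 1 library per age there is no replicate check and no test. All intervals below are 95% and cover counting error only, and a difference between ages is one between these libraries.

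In a germinal centre, activated B cells divide, mutate their antibody genes and compete for help from follicular helper T cells. Bcl6 encodes the transcriptional repressor that both the germinal centre B cell and the follicular helper T cell require. Cd80 and Cd86 encode the ligands (B7-1 and B7-2) by which B cells and dendritic cells engage CD28 and CTLA-4 on T cells. Cd83 encodes a membrane protein of activated B cells and mature dendritic cells that keeps CD86 and MHC class II at the cell surface. Fcer2a encodes CD23, the low-affinity IgE receptor of follicular B cells, and Cr2 the complement receptors CD21 and CD35, which act with CD81 in a co-receptor. Germinal centre B cells of mice are known to lose CD23. Organised clusters of B and T cells form in NOD islets as the disease advances.

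On the mouse build GRCm38, to which mm10 corresponds, the GENCODE M21 annotation places Bcl6 at chr16:23965052-23988852 on the minus strand, Cd86 at chr16:36603869-36666081 on the minus strand and Cd80 at chr16:38455561-38496335 on the plus strand. Cd83 lies at chr13:43784775-43803132 on the plus strand, Fcer2a at chr8:3681737-3694175 on the minus strand and Cr2 at chr1:195136811-195176716 on the minus strand. All are protein coding. Bcl6 overlaps Gm37419 on the opposite strand, which is not in the counted gene list. Promoter windows are shown for Fcer2a and Cr2, because these genes had the most similar levels over cell classes and were both low in the cycling B cells of the 12 week library described below. Windows come from RefSeq (GRCm38.p6), run 250 bases before to 50 bases after an annotated start, and are read on the minus strand. Capitals mark letters that match a motif searched on both strands. The TATA type was spelled TATAAA. The E-box bound by E2A proteins was spelled CAGGTG. The STAT6 type was TTC, any 4 bases, then GAA.
Fcer2a, window 1, chr8:3694125-3694424: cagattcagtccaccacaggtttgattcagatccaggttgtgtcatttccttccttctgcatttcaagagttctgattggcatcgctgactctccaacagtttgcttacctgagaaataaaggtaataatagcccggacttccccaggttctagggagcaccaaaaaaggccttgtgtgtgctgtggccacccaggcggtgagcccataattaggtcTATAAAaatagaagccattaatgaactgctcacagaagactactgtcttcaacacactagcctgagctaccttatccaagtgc
Fcer2a, window 2, chr8:3690812-3691111: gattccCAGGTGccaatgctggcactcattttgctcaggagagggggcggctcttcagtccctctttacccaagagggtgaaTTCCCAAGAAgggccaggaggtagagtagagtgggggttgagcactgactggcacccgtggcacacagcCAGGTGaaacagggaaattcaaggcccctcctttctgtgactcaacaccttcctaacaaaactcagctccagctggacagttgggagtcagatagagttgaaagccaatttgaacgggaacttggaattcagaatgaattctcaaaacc
Cr2, chr1:195176670-195176969: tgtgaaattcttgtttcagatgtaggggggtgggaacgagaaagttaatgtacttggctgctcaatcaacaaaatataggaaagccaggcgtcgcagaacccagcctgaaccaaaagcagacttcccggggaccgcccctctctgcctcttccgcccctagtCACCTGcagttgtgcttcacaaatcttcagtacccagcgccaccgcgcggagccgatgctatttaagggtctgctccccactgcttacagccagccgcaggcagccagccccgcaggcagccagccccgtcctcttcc
In Fcer2a window 1 the TATA type match began 33 bases before the start. Window 2 held a STAT6 type match 168 bases and E-boxes 244 and 99 bases before its start, and the third Fcer2a window held no match. The Cr2 window held 1 E-box, on the opposite strand, 88 bases before the start. Of 32851 mouse windows of this length, 13.6% held TATAAA, 20.2% CAGGTG and 6.95% the STAT6 type, so such matches are common, and they are descriptions of letters, not of bound sites. The octamer ATTTGCAT (1.74% of windows) and the EBF1 type CCCNNGGG (13.7%) were not found in these 3 windows.

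After filtering, 2741 cells with a median of 4936 unique molecular identifiers (UMIs, counts of distinct transcripts) remained at 12 weeks, against 1099 cells with a median of 5636 at 7 weeks. B cells were cells with at least 2 Cd79a UMIs and no UMI of Cd3d, Cd3e or Cd3g, 488 at 12 weeks and 115 at 7 weeks. Their markers fit the label, with Ms4a1 in 96.9% and 92.2% of them and Ebf1 in 98.2% and 96.5% at 12 and 7 weeks. The dendritic gate (at least 10 UMIs each of Cst3 and H2-Aa) held 220 cells at 12 weeks and 87 at 7 weeks, and was mixed. Its dendritic marker Flt3 was detected in 53.2% of it at 12 weeks, against 58.6% at 7 weeks. C1q-high cells numbered 27 and 10, and cells with at least 3 UMIs of the plasmacytoid gene Siglech 17 and 7, at 12 and 7 weeks. CD4 T cells (a Cd4 UMI, none of Cd8a or Cd8b1) numbered 878 at 12 weeks and 372 at 7 weeks, of which 39 and 18 also met the dendritic gate. The 2 libraries shared 2 cell barcodes. Levels are UMIs summed over the cells of a class per 1000000 UMIs of those cells (CPM), and a share is the percentage of cells with at least 1 UMI. Because cells differ in depth, each share is also given with every cell thinned to 3000 UMIs, as the average over all possible draws (called the expected share below).

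Cd83, Fcer2a and Cr2 were widely detected in islet B cells, and the 5 members with enough UMIs to compare all stayed within 1.5-fold between the ages there. Cd83 had the highest level, 392 CPM (1048 UMIs) at 12 weeks and 418 CPM (277 UMIs) at 7 weeks, a 12 over 7 week ratio of 0.938 (0.821 to 1.07). Its UMIs were spread over many cells at 12 weeks, where 112 B cells held 1 UMI, 86 held 2 and 152 held 3 or more, with at most 15 in a cell. At 7 weeks 31, 18 and 32 B cells did so, with at most 19 in a cell, and the 5 cells with most Cd83 held 26.4% of all Cd83 UMIs, against 5.73% at 12 weeks. Cd86 stood at 77.5 CPM (207 UMIs) at 12 weeks and 68.0 CPM (45 UMIs) at 7 weeks, a ratio of 1.14 (0.823 to 1.61). Cd80 was close to absent, with 8 UMIs in 8 of 488 B cells at 12 weeks (3.0 CPM). None was counted in 115 cells at 7 weeks, where the interval of the level reached up to 5.57 CPM. A difference in Cd80 was not detectable at this depth. Its expected share was 0.740% at 12 weeks and 0% at 7 weeks. In the CD8 T cells used for comparison below it was 1.18% and 0.365%.

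For both follicular receptors the interval of the ratio between the ages included 1. Fcer2a had 293 CPM (782 UMIs) at 12 weeks and 323 CPM (214 UMIs) at 7 weeks, a ratio of 0.906 (0.778 to 1.06). Cr2 had 118 CPM (316 UMIs) at 12 weeks and 131 CPM (87 UMIs) at 7 weeks, a ratio of 0.901 (0.708 to 1.16). Bcl6 was rare, with 30 UMIs at 12 weeks (11.2 CPM) and 6 at 7 weeks (9.06 CPM), a ratio of 1.24 (0.508 to 3.64). Of the 5 members with at least 20 UMIs in B cells, 0 were past 1.5-fold in either direction, where 26.8% of 7820 genes were, 16.4% higher and 10.4% lower at 12 weeks.

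Shares of B cells with each gene were also close at the 2 ages. Expected at 3000 UMIs per cell, Cd83 was in 59.0% of B cells at 12 weeks and 54.6% at 7 weeks, Fcer2a in 54.9% and 55.8%, and Cr2 in 29.8% and 32.7%. Cd86 was in 18.6% at 12 weeks and 17.4% at 7 weeks, and Bcl6 in 2.83% and 2.40%. A single draw gave Cd83 in 61.1% at 12 weeks and 50.9% at 7 weeks, a difference of 10.2 points (0.00267 to 20.3), which over all draws came to 4.46 points. Without thinning Cd83 was in 71.7% and 70.4% of B cells at 12 and 7 weeks, Fcer2a in 68.4% and 70.4%, Cr2 in 42.6% and 47.0%, Cd86 in 27.5% and 27.8%, and Bcl6 in 4.92% and 5.22%. For comparison, CD8 T cells with little Cd79a, Cst3 or H2-Aa RNA had Fcer2a in 0.242% and 0.342% of cells at 12 and 7 weeks. Cr2 was in 0 of 462 and 0 of 156 of them. Cd83 was in 3.04% and 2.66% of those cells and Cd86 in 4.28% and 2.76%, all under the B cell shares. For Bcl6 the same cells gave 1.54% and 2.37% at 12 and 7 weeks, against 2.83% and 2.40% in B cells. Whether such transcripts in CD8 T cells were stray or their own was not tested. As a level, Bcl6 in B cells was 2.08-fold (1.10 to 4.09) that of these CD8 T cells at 12 weeks (5.39 CPM in the CD8 T cells) and 1.31-fold (0.373 to 4.29) at 7 weeks (6.94 CPM).

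**Figure D1:**
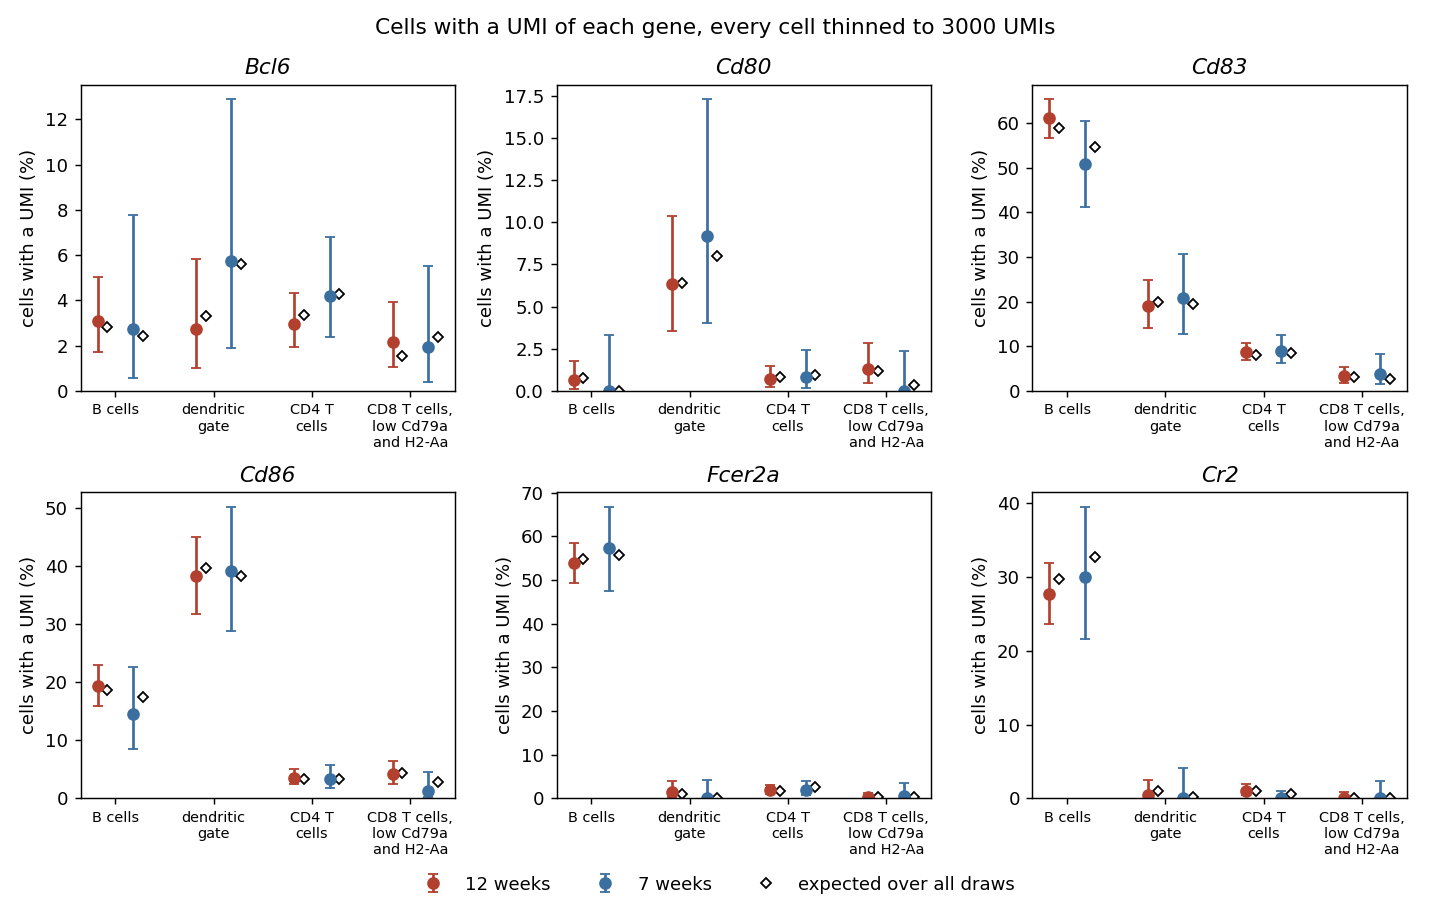
Percentage of cells with a UMI of each gene (y axis) in 4 cell classes (x axis), at 12 weeks (red, left) and 7 weeks (blue, right), with every cell thinned to 3000 UMIs. Points are 1 draw with exact binomial 95% intervals and diamonds the share expected over all draws; Fcer2a and Cr2 are highest in B cells, and Cd86 is highest in the dendritic gate.

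RNA of other cells in the B cell gate differed between the libraries. Summed macrophage markers made up 1.57 per 10000 UMIs of B cells at 12 weeks and 0.332 at 7 weeks, with all 3 measured genes higher (Apoe 16.2-fold). Acinar markers made up 2.56 and 0.997 per 10000 and endocrine markers 1.3 and 0.136, at 12 and 7 weeks, and T cell markers 2.49 and 2.51. Their part in the B cell values was not tested, but with the gate narrowed to cells with Cd79b and almost no C1q or Siglech, the Cd83 ratio was 0.918 and the Bcl6 ratio 1.22. The Cd3 limit of the gate left out 214 cells at 12 weeks and 69 at 7 weeks that had at least 2 Cd79a UMIs.

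Within B cells the activation and follicular genes were detected together about as often as their shares predict. In the single draw, Cd83 and Cd86 were both seen in 59 of 488 cells at 12 weeks, against 57.4 from the product of their shares, and in 10 of 110 at 7 weeks, against 8.15. Over all draws Cd86 was expected in 19.7% of cells with Cd83 and 16.9% of those without at 12 weeks, and in 18.7% and 15.9% at 7 weeks. Fcer2a and Cr2 were both seen in 80 cells at 12 weeks, against 72.8 from their shares, and in 23 at 7 weeks, against 18.9. Over all draws Cr2 was expected in 31.2% of cells with Fcer2a and 28.2% of those without at 12 weeks, and in 38.4% and 25.6% at 7 weeks. Fcer2a was less frequent beside Cd86, at 48.5% of cells with Cd86 and 56.3% of those without at 12 weeks and 50.6% and 56.9% at 7 weeks. These are descriptions over cells of 1 library each. Of Cd83, Cd86, Fcer2a and Cr2, B cells most often showed 2 together, in 41.6% at 12 weeks and 40.9% at 7 weeks, and all 4 were seen in 7 and 3 cells.

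Cycling B cells, with at least 3 of 12 cell cycle genes, were 10 at 12 weeks and 3 at 7 weeks. At 12 weeks Bcl6 stood at 37.1 CPM in cycling and 8.96 CPM in other B cells, a ratio of 4.13 (1.59 to 9.64). Fcer2a stood at 46.3 CPM in cycling and 315 CPM in other B cells (ratio 0.147, 0.0703 to 0.272), and Cr2 at 23.2 and 127 CPM (ratio 0.183, 0.0589 to 0.431). Cd83 stood at 139 CPM in cycling and 415 CPM in other B cells (ratio 0.335, 0.225 to 0.481), and Cd86 at 97.3 and 75.8 CPM (ratio 1.28, 0.776 to 2.02). Few UMIs lay behind these cycling values. Bcl6 had 8 in 4 of the 10 cells, Fcer2a 10 in 4, Cr2 5 in 3, Cd83 30 in 6 and Cd86 21 in 5. The most in a single cell were 4, 5, 3, 15 and 9. A cell with 48578 of the 215899 UMIs of the class had no UMI of any member. The intervals do not cover the spread between these cells. Of all 7298 genes with enough UMIs, 31.7% were past 1.5-fold higher in cycling cells and 24.6% lower, 56.3% in all, so being past it does not set the members apart. The 3 cycling cells at 7 weeks had 0 Bcl6 UMIs, and 19 and 12 of their Cd83 UMIs were in 2 of them, 1329 CPM against 385 CPM in other B cells. Without cycling cells, Cd83 in B cells was 415 CPM at 12 weeks and 385 CPM at 7 weeks, so the ratio became 1.08 (0.936 to 1.24).

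Of the germinal centre list, 12 of 15 genes had at least 20 UMIs in B cells, and 3 were past 1.5-fold higher at 12 weeks and 0 lower, where 16.4% of all genes were higher. Among them, Spib, a transcription factor of B cells, had 193 and 128 CPM at 12 and 7 weeks (ratio 1.51, 1.19 to 1.92), and Efnb1 had 22 and 3 UMIs (ratio 1.82, 0.546 to 9.49). The list's median log2 ratio was -0.19, against 0.10 over all 7820 genes. Of 21 measured genes of the B activation list 0 were higher and 2 lower, where 10.4% of all genes were lower. They were the immediate early gene Egr1, with 67.4 CPM at 12 weeks and 101 CPM at 7 weeks (ratio 0.666, 0.501 to 0.896), and the NF-kB inhibitor gene Tnfaip3, with 16.1 and 25.7 CPM (ratio 0.627, 0.350 to 1.17). The median of that list was -0.27. Of 12 follicular genes 0 were higher and 1 lower, Klf2, a transcription factor of resting lymphocytes, with 48.7 CPM at 12 weeks and 95.1 CPM at 7 weeks (ratio 0.512, 0.376 to 0.703).

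Genes that act with the members moved singly. Of the Cr2 co-receptor, Cd81 (ratio 1.32) was within 1.5-fold, and Ifitm1 had 140 UMIs at 12 weeks and 1 at 7 weeks (ratio 34.7, 6.13 to 1381). Of 5 genes listed with Fcer2a, Notch2, which encodes a Notch receptor, had 31.1 CPM at 12 weeks and 49.8 CPM at 7 weeks (ratio 0.624, 0.412 to 0.964). Il4ra (1.14), Stat6 (1.0) and Adam10 (0.874), the protease that sheds CD23, were within 1.5-fold, as was Il4i1, the remaining listed gene. Of 7 measured Bcl6 corepressor and antagonist genes, Hdac5 was higher and Bcor and Hdac7 lower at 12 weeks, where 16.4% of all genes were higher and 10.4% lower. Bcor had 10.1 CPM at 12 weeks and 21.1 CPM at 7 weeks (ratio 0.478, 0.242 to 0.987). Of 5 measured genes of the age-associated B cell list 2 were higher, against the same 16.4% of all genes. Cxcr3, a chemokine receptor, had 73 UMIs at 12 weeks and 3 at 7 weeks (ratio 6.03, 1.98 to 29.9), and Itgax had 20 UMIs at 12 weeks and 0 at 7 weeks. The B cell gate held 2670568 UMIs in all at 12 weeks and 662232 at 7 weeks. Itgax was also on the list of dendritic cell markers, and 11 B cells at 12 weeks and 1 at 7 weeks also met the dendritic gate. Their part in the Itgax count was not tested.

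In the dendritic gate Cd86 led, and the costimulatory genes ranked differently from B cells. Cd86 stood at 196 CPM (579 UMIs) at 12 weeks and 171 CPM (224 UMIs) at 7 weeks, a ratio of 1.15 (0.981 to 1.34). Cd83 stood at 119 CPM (352 UMIs) at 12 weeks and 103 CPM (135 UMIs) at 7 weeks, a ratio of 1.16 (0.946 to 1.42), and Cd80 at 24.0 CPM (71 UMIs) and 25.2 CPM (33 UMIs), a ratio of 0.954 (0.623 to 1.49). Thus 0 of the 3 were past 1.5-fold, where 24.3% of 9206 genes were. Relative to B cells of the same library, Cd86 was 2.53-fold (2.15 to 2.98) at 12 weeks and 2.52-fold (1.82 to 3.55) at 7 weeks. Cd83 was 0.304-fold (0.268 to 0.343) and 0.246-fold (0.199 to 0.304) of its B cell level at 12 and 7 weeks. Cd80 was 8.02-fold (3.86 to 19.3) at 12 weeks. Expected at 3000 UMIs, Cd86 was in 39.6% of gated cells at 12 weeks and 38.3% at 7 weeks, Cd83 in 19.9% and 19.4%, and Cd80 in 6.39% and 7.99%.

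RNA of other cells differed in this gate too. Summed T cell markers were 1.37 per 10000 UMIs at 12 weeks and 5.74 at 7 weeks, B cell markers 5.87 and 2.55, macrophage markers 85.9 and 43.0, plasma cell markers 76.4 and 42.0, and endocrine markers 89.4 and 0.671. Their part was not tested. Among cells with little C1q, Siglech and Cd79a RNA, 148 at 12 weeks and 65 at 7 weeks, the ratios were 1.10 (0.931 to 1.3) for Cd86, 1.11 (0.891 to 1.40) for Cd83 and 0.804 (0.507 to 1.29) for Cd80. Of 16 mature dendritic genes 5 were higher and 3 lower at 12 weeks, where 11.9% of all genes were higher and 12.4% lower. Among them the chemokine gene Ccl17 had 146 UMIs at 12 weeks and 1 at 7 weeks, the migration genes Ccr7 (ratio 1.76, 1.27 to 2.46) and Fscn1 (1.60, 1.26 to 2.05) were higher, and Il12b, a subunit of interleukin 12, was lower (0.323, 0.158 to 0.643).

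Both Cd83 and Cd86 varied between kinds of dendritic gate cells. At 12 weeks Cd83 was at 285 CPM in the 17 cells with Ccr7 and Fscn1, which mark mature migratory cells, and 299 CPM in the 23 cells with Xcr1 or Clec9a, markers of cross-presenting cells. It was at 131 CPM in C1q-high cells and 63.3 CPM in the rest of the gate, ratios over the rest of 4.51 (3.29 to 6.15), 4.72 (3.59 to 6.21) and 2.07 (1.48 to 2.87). At 7 weeks the same classes had 192 CPM in 3 cells, 48.2 CPM in 10 cells and 122 CPM in 10 cells, against 117 CPM in the rest, ratios over it of 1.65 (0.795 to 3.07), 0.413 (0.192 to 0.792) and 1.05 (0.565 to 1.81). The Xcr1 or Clec9a class had a 12 over 7 week Cd83 ratio of 6.19 (3.24 to 13.3), and 5 cells held 78.9% of its Cd83 UMIs at 12 weeks. Cd83 was detected in 16 of its 23 cells at 12 weeks, against 6 of its 10 at 7 weeks. Cd86 was at 203, 274, 165 and 205 CPM in these classes and the rest at 12 weeks and at 175, 198, 89.7 and 192 CPM at 7 weeks. Its ratio over the rest was 1.33 (1.06 to 1.67) in the Xcr1 or Clec9a class at 12 weeks, and 0.467 (0.229 to 0.859) in C1q-high cells at 7 weeks. In Siglech cells Cd80 had 0 UMIs at both ages and Cd86 had 0 UMIs in 17 cells at 12 weeks and 1 UMI in 7 cells at 7 weeks. Cd80 was between 16.4 and 28.9 CPM in the other classes at 12 weeks, with overlapping intervals.

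**Figure D2:**
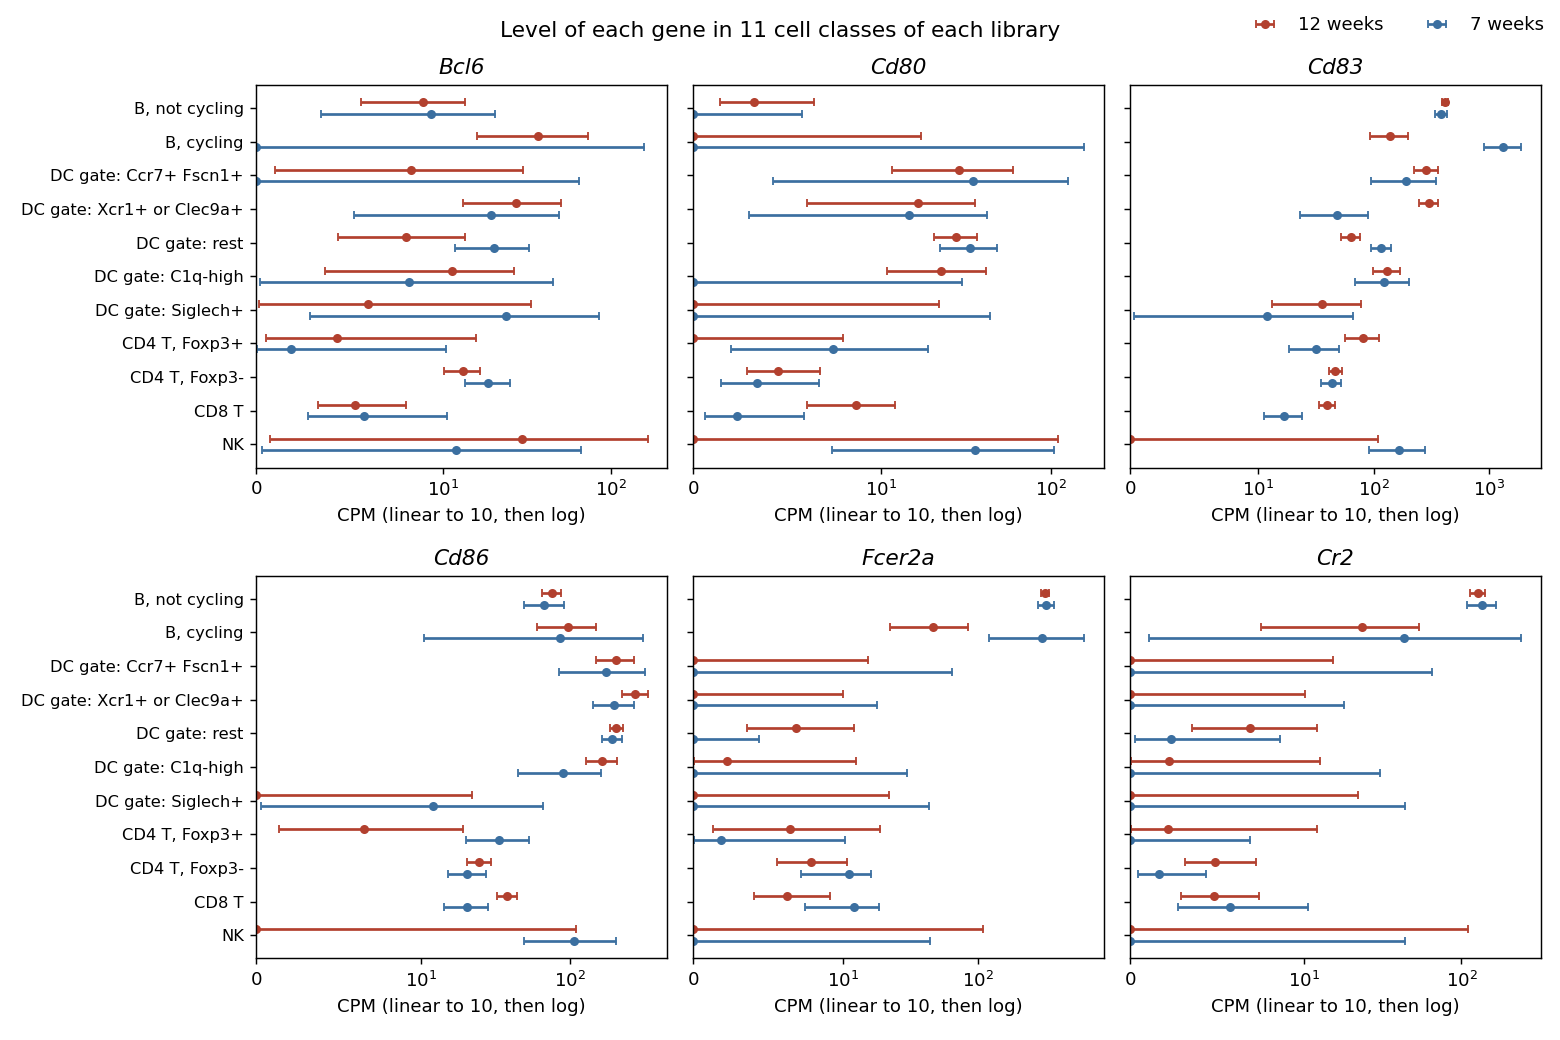
Level in CPM (x axis, linear to 10 and logarithmic above) of each gene in 11 cell classes (y axis) at 12 weeks (red, above) and 7 weeks (blue, below), with exact Poisson 95% intervals. Fcer2a and Cr2 are highest in B cells that do not cycle (315 and 127 CPM at 12 weeks, 324 and 135 CPM at 7 weeks), and Cd83 of the Xcr1 or Clec9a class stands apart between the ages (299 and 48.2 CPM).

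Over the 22 points formed by 11 cell classes in 2 libraries, Fcer2a and Cr2 were each other's closest match among 10428 genes (Pearson r = 0.970 on log2(CPM + 10)). Next for Fcer2a came Ebf1 (0.962), Cpm (0.952) and Pax5 (0.944), and for Cr2 Fcmr (0.958), Scd1 (0.951), Bank1 (0.947) and Ebf1 (0.946). Cd83 was nearest to Swap70 (0.855), Map2k1 (0.837), Birc3 (0.837), H2-DMb2 (0.826) and H2-Ob (0.805). Cd86 was nearest to Ifi30 (0.897), Spi1 (0.895), Marcksl1 (0.860), H2-Eb1 (0.844) and Hk2 (0.838), and Cd80 to Avpi1 (0.943), Dock5 (0.936), Kcnk6 (0.934), Adam22 (0.928) and Gm38399 (0.927). Bcl6 had no match above 0.774, reached by Tmem199, before Ero1l (0.744), Vcpip1 (0.743), Nomo1 (0.724) and Ift20 (0.706). The points share libraries and some rest on few UMIs, so these are descriptions. By place, B cells held 72.8% of Fcer2a UMIs at 12 weeks and 65.8% at 7 weeks, 69.1% and 68.0% of Cr2, and 48.7% and 40.7% of Cd83. Dendritic gate cells held 57.5% and 64.9% of Cd86 and 55.1% and 68.8% of Cd80, and CD4 T cells 36.5% and 39.4% of Bcl6, at 12 and 7 weeks.

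Inside the dendritic gate, 15 of 16 mature dendritic genes were expected more often beside Cd83 at 12 weeks and 13 at 7 weeks, where 36.3% and 42.4% of 9205 genes were. Of 21 measured genes of the B activation list 19 were at each age. Among the cells with little C1q, Siglech and Cd79a RNA these counts were 14 and 13 of 16 and 17 and 17 of 21, at 12 and 7 weeks. In the single draw the difference had an interval above 0 for 11 of the 16 genes at 12 weeks but 1 at 7 weeks. For the B activation list it did for 10 and 5 of 21, and over all genes for 3.54% and 2.43%. The 16 genes include Ccr7 and Fscn1, which also define a class within the gate. The genes named next were picked for the size of the difference in detection. Over all draws, Cd40, the receptor by which T cells license dendritic cells, was expected in 44.3% of cells with Cd83 and 20.3% of those without at 12 weeks, and in 37.8% and 17.5% at 7 weeks. Cxcl10, an interferon-induced chemokine, was expected in 32.7% and 11.6% at 12 weeks and 31.2% and 14.6% at 7 weeks, and the adaptor Traf1 in 59.1% and 41.8% and in 60.3% and 36.0%. Samhd1 (8.16 and 13.1 points at 12 and 7 weeks) and H2-Q4 (4.28 and 6.15 points) differed less. Beside Cd86, Plbd1 was expected in 76.0% of cells with it and 54.8% of those without at 12 weeks, and in 69.9% and 57.9% at 7 weeks, and Traf1 in 57.5% and 37.2% and in 49.6% and 35.1%. Rgs2, Slamf8 and Pglyrp1 differed by 15.5, 16.2 and 18.8 points at 12 weeks and by 11.5, 10.1 and 15.2 points at 7 weeks, but Slamf8 by 7.07 and 5.09 points among the cells with little C1q, Siglech and Cd79a RNA. Cd86 itself was expected in 47.7% of cells with Cd83 and 37.6% of those without at 12 weeks, and in 48.9% and 35.8% at 7 weeks. Cells with Cd80 had S100a4 in 86.5% and cells without in 62.2% at 12 weeks, and in 93.5% and 69.3% at 7 weeks. Ffar2 and Pak1 differed by 20.3 and 16.9 points at 12 weeks and by 19.5 and 13.4 points at 7 weeks, and Fam32a by 1.91 and 5.72 points. H2-Oa was expected in 62.1% and 46.3% at 12 weeks and 61.7% and 41.7% at 7 weeks. Among the cells with little C1q, Siglech and Cd79a RNA, S100a4, Ffar2, Pak1 and H2-Oa were not among the 5 ranked highest beside Cd80. Fam32a, which was, differed there by 0.0762 and 3.67 points at 12 and 7 weeks. Plbd1, Traf1, Rgs2 and Pglyrp1 were likewise not among the 5 ranked highest beside Cd86 in those cells. The part of mixed cell kinds in these differences was not tested. Among B cells that do not cycle, Hspa5, an endoplasmic reticulum chaperone, was expected in 69.2% of cells with Cd83 and 59.6% of those without at 12 weeks, and in 68.0% and 56.7% at 7 weeks. Beside Fcer2a, Siglecg, an inhibitory B cell receptor, was expected in 71.7% and 65.5% at 12 weeks and 72.9% and 59.1% at 7 weeks. The ranking used a single draw and is not stable for every gene. Csk beside Cr2 was expected in 51.2% and 44.4% at 12 weeks but 47.0% and 53.3% at 7 weeks, and Edf1 beside Bcl6 in 77.2% and 59.9% at 12 weeks but 42.6% and 48.0% at 7 weeks.

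Bcl6 in CD4 T cells was a low signal with few UMIs in the Foxp3+ regulatory cells. It had 69 UMIs at 12 weeks (12.4 CPM) and 45 at 7 weeks (15.6 CPM), a ratio of 0.797 (0.539 to 1.19), and 17.6% of 10220 genes were past 1.5-fold in these cells. Both levels exceeded those of the CD8 T cells described above, by 2.3-fold (1.32 to 4.25) at 12 weeks and 2.25-fold (1.05 to 5.52) at 7 weeks. The 61 Foxp3+ cells at 12 weeks had 2 Bcl6 UMIs and the 51 at 7 weeks had 1, so levels relative to Foxp3- cells were 0.330 (0.0391 to 1.24) and 0.0993 (0.00246 to 0.583). Summed macrophage markers in the CD4 gate were 25.6 per 10000 UMIs at 12 weeks and 5.84 at 7 weeks, and endocrine markers 13.9 and 0.357. Their part was not tested, and in the 823 and 356 cells with a Cd3 UMI and at most 1 Cd79a UMI the Bcl6 ratio was 0.827 (0.556 to 1.24).

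CD4 T cells with Bcl6 shared some genes of follicular helper T cells. In those 823 and 356 cells, over all draws, 15 of 16 listed genes were expected more often beside Bcl6 at 12 weeks, 11 at 7 weeks and 11 at both. Of 9994 genes measured in these cells, 52.3% were at 12 weeks, 45.7% at 7 weeks and 25.3% at both. Tox2, a factor upstream of the helper programme, was expected in 27.9% of cells with Bcl6 and 9.25% of those without at 12 weeks, and in 30.2% and 14.3% at 7 weeks. Cxcr5, the receptor for follicle entry, was expected in 16% and 6.38% at 12 weeks and 18.2% and 5.6% at 7 weeks. Pdcd1, which encodes PD-1, was expected in 51.8% and 27.1% at 12 weeks but 37.1% and 35.1% at 7 weeks, and Tox in 47.3% and 22.2% and in 27.4% and 25.4%. Sh2d1a, the adaptor needed for lasting contact with B cells, was expected in 69.3% and 47.2% at 12 weeks and 51.3% and 45.0% at 7 weeks. Icos was expected less often beside Bcl6 at both ages, by -8.24 and -5.81 points. The cells with Bcl6 in the single draw were 26 at 12 weeks and 14 at 7 weeks, with median depths of 4616 and 5672 UMIs, against 4669 and 5952 in those without. In that draw the interval of the difference lay above 0 for 5 of the 16 genes at 12 weeks and 3 at 7 weeks, and for Tox2 at both, where it did for 5.83% of the 9994 genes at 12 weeks, 5.01% at 7 weeks and 0.4% at both. Over all genes and all CD4 T cells, Matr3, Rab37, Erp29 and Tcea1 ranked highest with Pdcd1, with expected differences of 23.0, 17.1, 6.81 and 6.19 points at 12 weeks and 10.8, 2.88, 11.6 and 9.21 points at 7 weeks. As levels in all CD4 T cells, Il4 of the 16 genes was past 1.5-fold higher at 12 weeks (26 and 8 UMIs, ratio 1.69, 0.742 to 4.32) and Tox2 lower (39.9 and 63.0 CPM, ratio 0.634, 0.519 to 0.775), where 7.66% of all genes were higher and 9.91% lower.

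**Figure D3:**
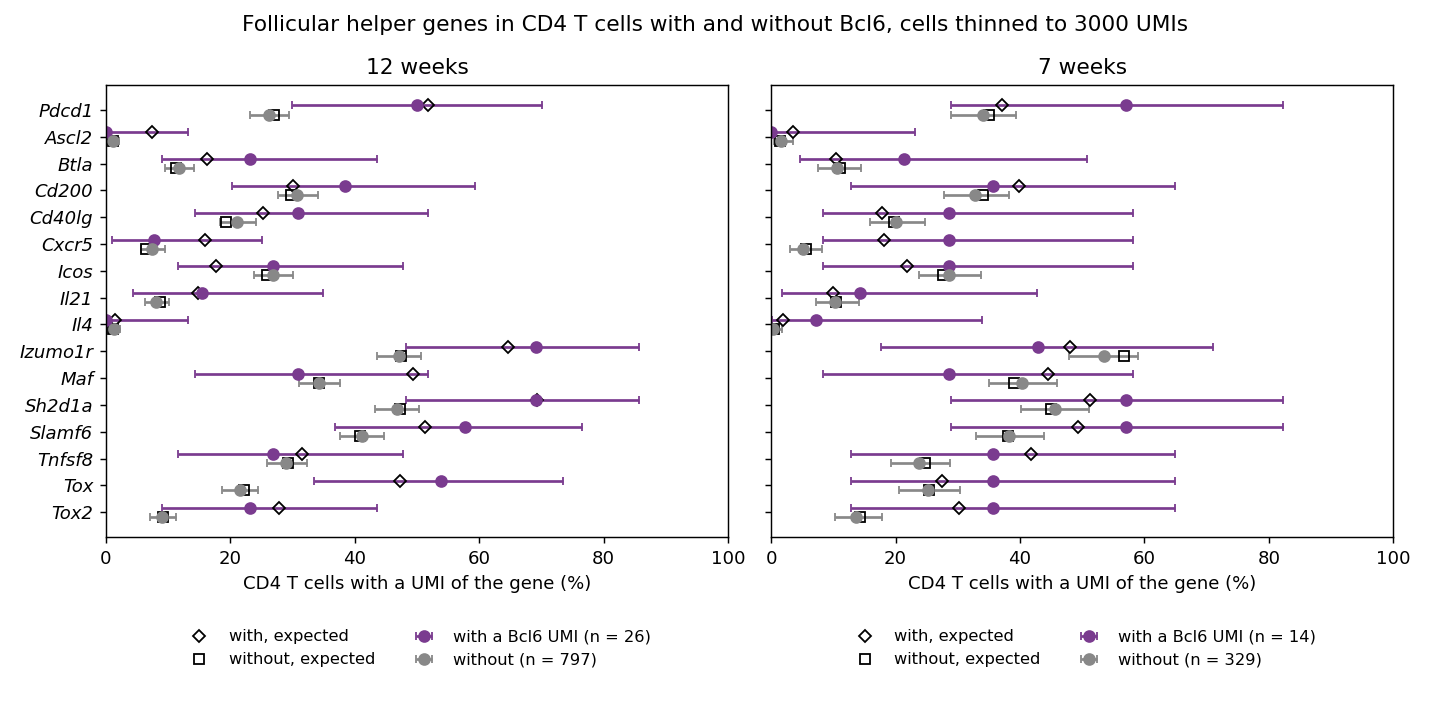
Percentage of CD4 T cells with a UMI of each of 16 follicular helper genes (x axis) among cells with (purple, above) and without (grey, below) a Bcl6 UMI, at 12 weeks (left) and 7 weeks (right). Points are 1 draw of 3000 UMIs per cell with exact binomial 95% intervals, and open symbols the shares expected over all draws; Tox2 and Cxcr5 are higher beside Bcl6 at both ages over all draws.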

How the data were processed

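The authors deposited whole-number UMI counts per gene and barcode, not normalized, 1 matrix per library, and the submitters' processing notes name Cell Ranger 1.3.1 and mm10. Aligner settings and the counted annotation are not given in the sources used here. Matrices held 2812 barcodes and 19288252 UMIs at 12 weeks, and 1113 barcodes and 8701184 UMIs at 7 weeks. The smallest barcodes had 3031 and 2587 UMIs.

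Barcodes with under 200 genes or over 10% mitochondrial UMIs were dropped (8 and 4). Doublets were scored by the Scrublet method. Its automatic threshold called 0 and 1 barcodes, under the lower limit of 0.5%, so the highest scores were removed up to a loading rate of 0.8% per 1000 barcodes (63 and 10).

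CPM of summed UMIs carry exact Poisson intervals, ratios exact conditional binomial, shares Clopper-Pearson and their differences Newcombe intervals, at 95%. A count of 0 uses a floor of 3 counts. Genes with at least 20 UMIs over both libraries entered the comparison of ages, and past 1.5-fold is a size, not a test. Shares were thinned to 3000 UMIs (seed 0), which left out 53 cells at 7 weeks. They were also computed as the hypergeometric expectation over all draws, which was added after seeing the data. The CD8 T cell comparison class and the shares of all genes seen more often beside Bcl6 or Cd83 were added then too. Pairs of genes were treated as drawn independently within a cell. Intervals and tables were tested on simulated data. Cycling cells had at least 3 of 12 cycle genes. Named genes were all members, the 5 most alike per member over the class panel (genes with at least 50 UMIs), the 5 with the largest smaller difference in detection beside each member (detected in at least 5% of cells), and list genes past 1.5-fold. Only part of the ranked genes in B cells is printed, and some genes that the rule names are not reported here. The members and lists were chosen with earlier results of these data known. Python 3.11.15, numpy 2.4.6, scipy 1.17.1, pandas 2.3.3, scikit-learn 1.9.0 and matplotlib 3.10.9 were used.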

Additional observations from a re-analysis of the deposited data

Results flagged for a closer look

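Cd83 moved in opposite directions in several classes. Cycling over other B cells gave 0.335 at 12 weeks and 3.45 at 7 weeks, where 3 cells cycled, and the 12 over 7 week ratio in cycling B cells was 0.105. The 12 over 7 week Cd83 ratio was 6.19 in dendritic gate cells with Xcr1 or Clec9a, 2.54 in Foxp3+ CD4 T cells and 2.36 in CD8 T cells, but 0.542 in the rest of the dendritic gate. The 5 cells with most Cd83 held 78.9% of its UMIs in the Xcr1 or Clec9a class at 12 weeks and 78.4% in Foxp3+ CD4 T cells. In CD8 T cells with little B or myeloid RNA the Cd83 ratio was 0.984 (0.529 to 1.92). The Cd86 ratio was 1.87 in CD8 T cells, but 1.36 (0.702 to 2.84) in those with little B or myeloid RNA. In Foxp3+ CD4 T cells it was 0.194, with 3 UMIs in 3 cells at 12 weeks and 18 UMIs in 5 cells at 7 weeks. Thinned to 3000 UMIs, Cd86 was in 4.92% of those cells at 12 weeks and 4% at 7 weeks, and Cd83 in 14.8% and 14%. Each was picked because counting intervals lay on opposite sides of 1, and with 1 library per age the differences were not tested.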

How the results depend on the processing

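Without replicates, a setting is compared with the counting interval of the reported value. Over 9 ratios between the ages and 82 alternatives, 79 stayed within it and 3 moved. Without the 5 cells with most UMIs of the gene in each library, the ratio became 4.42 (0.703 to 184) for Bcl6 in B cells, where 1 UMI was left at 7 weeks by construction, and 1.14 for Cd83 in B cells. Among B cells that do not cycle the Cd83 ratio was 1.08, and the cause of these shifts was not tested beyond the values in the text. The share differences stayed within their intervals in all 50 alternatives, but the one whose interval cleared 0, Cd83 in B cells at 10.2 points, was 1.29 without thinning, 3.20 at 2500 UMIs, 2.58 at 4000 UMIs and 4.46 over all draws. The doublet alternative at the loading rate equals the reported setting. Cd80 in B cells has no ratio because 0 UMIs were counted at 7 weeks. Depth limits Bcl6 and Cd80 most. No paired analysis was possible because each age has 1 library.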
